A study of Rattus norvegicus with 6 samples.

Results

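Matricellular proteins and proteoglycans of the cardiac extracellular matrix were examined in transplanted rat hearts as 10 listed genes, taken by symbol from the deposited expression table of 22250 genes. They were Fn1, Thbs1, Thbs2, Tnc, Postn, Sparc, Lox, Bgn, Dcn and Lum. All 10 were found under a single identifier each, and all 10 were among the 13784 genes with enough reads to be tested. RNA-Seq had been performed on left ventricular myocardium of 3 young donor hearts (10 weeks old, animals 3, 13 and 15) and 3 aged donor hearts (1 year old, animals 3, 4 and 7), and the comparison asked how donor age was reflected in gene expression on day 1 after transplantation. All donors were WT male Sprague-Dawley rats, and all hearts had been arrested and kept cold in University of Wisconsin (UW) solution before heterotopic transplantation into young rats, so the groups differed by donor age alone as labelled. A heterotopic graft beats without its normal filling load, and cells of the recipient that entered the graft are part of the tissue sequenced. Hearts before transplantation are not analysed here. Animals are numbered within each group, and the young and the aged donor that carry number 3 are separate rats.

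The extracellular matrix surrounds the cells of the heart and is made largely by fibroblasts. Fibronectin, the product of Fn1, is an adhesive glycoprotein that cells bind through integrins. Matricellular proteins are secreted into the matrix but act on cells more than they bear load, and in the adult heart several of them are scarce until injury, when they appear with tissue remodelling. Lysyl oxidase, the product of Lox, crosslinks collagen and elastin. Biglycan (Bgn), decorin (Dcn) and lumican (Lum) are small leucine-rich proteoglycans, short matrix proteins with carbohydrate chains that bind collagen fibrils.

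Each heart had between 21457509 and 24560869 reads on genes. Levels are given as CPM, read counts relative to library size with the TMM scaling of edgeR, and 3 counts, taken as the smallest signal, correspond to 0.0985 to 0.191 CPM. Every member had at least 142 reads in every heart. Cardiomyocyte markers checked the labelled tissue. Summed over 10 such genes they stood at 91200 and 101000 CPM in young animals 3 and 13 but at 11900 CPM in young animal 15, and at 585, 7240 and 5630 CPM in aged animals 3, 4 and 7. The ventricular light chain gene Myl2 was at 0.887 CPM in aged animal 3, where it was lowest, against 27.3 to 387.9 CPM in the other hearts. Young animal 15 and aged animal 3 thus stood apart from the other hearts of their groups, and counts of members and of the related lists, and those of the fibroblast, collagen, macrophage and neutrophil markers, are also given without each of them. In such bulk samples, fewer cells of a type and less RNA per cell cannot be told apart.

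The study's limits, a fold over 1.5 or under 0.67 at p under 0.05 before adjustment, were passed with all 6 hearts by 0 of the 10 members in the higher direction and by 1, Sparc, in the lower direction. Of all genes tested by edgeR, 32.2% passed these limits, 13.2% higher in aged donor hearts and 19.0% lower. After Benjamini-Hochberg adjustment over all genes tested, 0 members and 0 of the 13784 genes had an adjusted p under 0.05 in edgeR, against 1 member and 4731 genes (34.3%) before adjustment. Without young animal 15, edgeR placed 7 members past the limits and higher (Fn1, Thbs1, Thbs2, Tnc, Postn, Lox and Bgn) and Sparc past them and lower, where 26.9% and 24.2% of the 14109 genes tested in that fit were past them in these directions. All of these except Thbs2 then had an adjusted p under 0.05, as did 6815 genes. Without aged animal 3 the members past the limits were Sparc, Dcn and Lum, all lower, against 14.7% of genes, and 0 were higher, against 7.47%. Without aged animal 7 there were 0 members past the limits in either direction, against 8.79% of genes higher and 13.7% lower. The median log2 fold change of the 10 members was 0.055, beside 0.017 over all genes tested.

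Other tools and scalings moved Fn1, Thbs1 and Sparc across the limits. DESeq2 and limma-voom each placed Fn1 and Thbs1 past them and higher, beside 15.6% and 16.1% of genes, and Sparc past them and lower, beside 21.2% and 17.1% of genes. An adjusted p under 0.05 was given by DESeq2 for Sparc and Thbs1, among 3592 genes, and by limma-voom for 0 members. With libraries scaled to fibroblast identity genes, Thbs1 was past the limits and higher (22.0% of genes) and 0 members were lower (3.99% of genes). Of the 7 tested genes used for that scaling, 3 were themselves past the limits and lower in the edgeR fit of all 6 hearts. With libraries scaled by their totals, 0 members were past the limits, beside 22.8% of genes higher and 10.5% lower. Sparc remained the only member past them with no filter on low counts (16.2% of genes lower) and with a minimum mean of 1 CPM (19.6% lower). The same held without young animal 3, without young animal 13 and without aged animal 4, where 11.5%, 11.6% and 15.3% of genes were past the limits and lower and 5.83%, 6.13% and 9.97% higher.

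**Figure D1:**
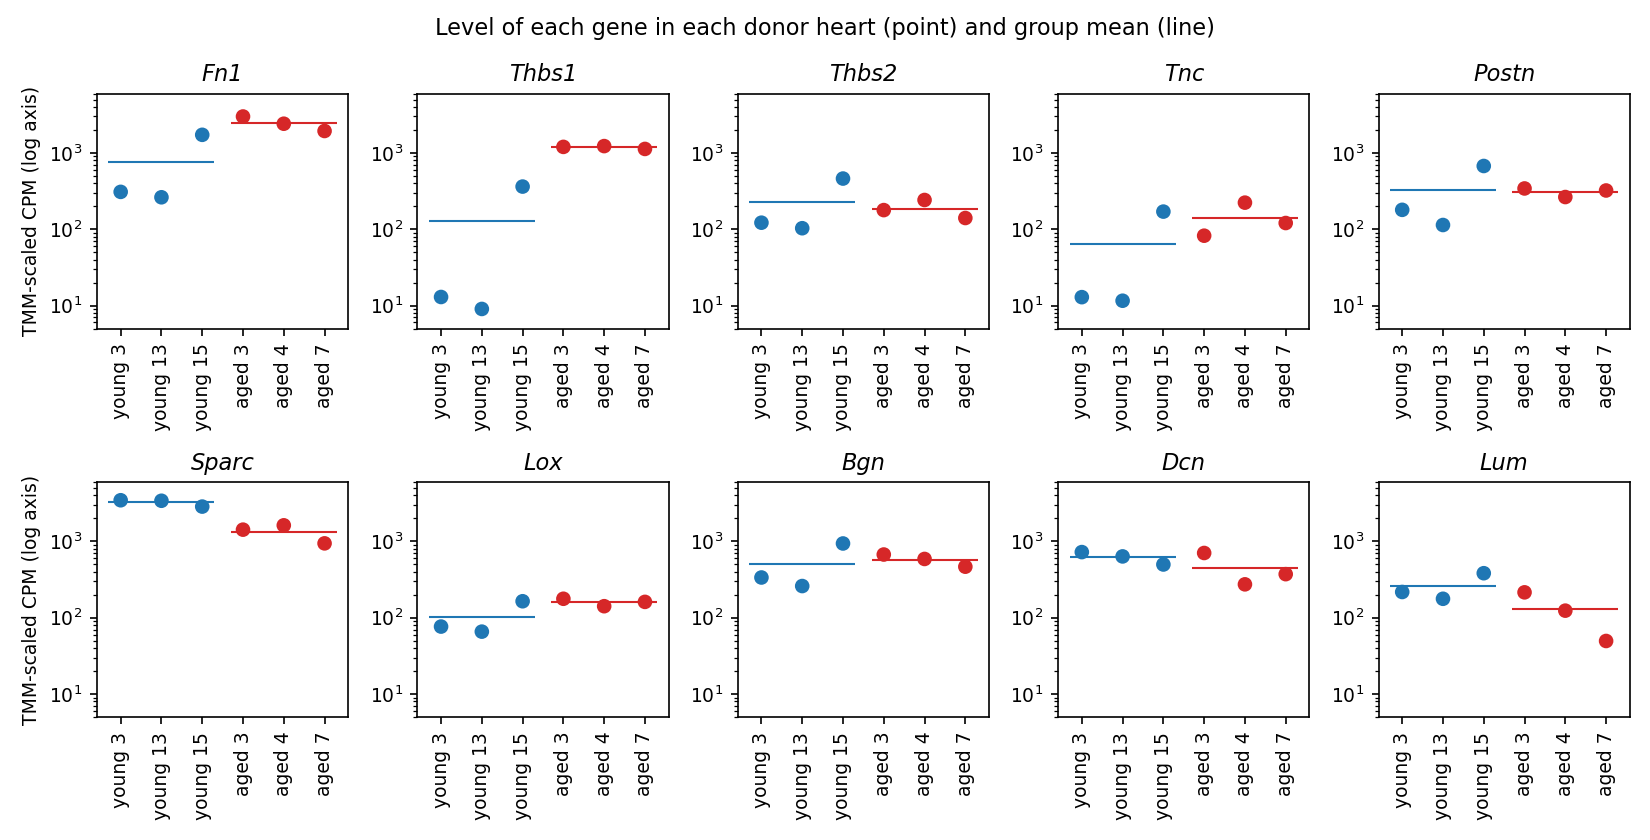
Level in CPM (log axis) of each gene in each donor heart, with young hearts in blue, aged hearts in red and the group mean as a line. In Fn1, Thbs1, Tnc, Postn, Thbs2, Lox and Bgn, young animal 15 lies above young animals 3 and 13, whereas in Sparc the 3 young hearts lie together above the 3 aged hearts.

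Fibronectin RNA was higher in all 3 aged donor hearts than in any young donor heart. Fn1 (ENSRNOG00000014288, chromosome 9 from 78900103 to 78969078, minus strand, build Rnor_6.0 per the submitters' processing notes) was at 308.6, 262.2 and 1725 CPM in young animals 3, 13 and 15. It was at 2998, 2411 and 1937 CPM in aged animals 3, 4 and 7. The groups did not overlap, but the margin was narrow, with the lowest aged heart at 1.12 times young animal 15, which itself was at 5.59 times the higher of the other young hearts. The log2 fold change in edgeR was 1.68 ± 0.808 (SE, the standard error), with an unadjusted p of 0.0803 and an adjusted p of 0.185. Without young animal 15 it was 3.14 (adjusted p = 0.00184, edgeR). It was 1.51 without aged animal 3, 1.3 without young animal 3 and 1.27 without young animal 13 (adjusted p = 0.325, 0.427 and 0.409, edgeR). Young animal 15 was set apart after its levels in these data were seen. The adjusted p values without it are therefore descriptive only, for every member.

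The largest difference among the members was that of thrombospondin-1, a trimeric glycoprotein that is stored in platelets, made by many injured tissues and known as an activator of latent TGF-beta. Thbs1 (ENSRNOG00000045829, chromosome 3 from 109862117 to 109873466, plus strand) had 214, 142 and 8767 reads in young animals 3, 13 and 15 and 36510, 32395 and 29410 reads in aged animals 3, 4 and 7. In CPM these were 12.9, 9.03 and 362.1 against 1199, 1228 and 1127. The aged hearts were close to each other, within 1.09-fold, and all of them were at least 3.11 times as high as young animal 15. The young hearts were not close, since young animal 15 was at 28.0 times the higher of the other young hearts. The log2 fold change was 3.21 (SE 1.44, unadjusted p = 0.0643 and adjusted p = 0.165 from edgeR), and the exact permutation test gave p = 0.1, two-sided, the smallest that 3 hearts against 3 allow. Without young animal 15 the log2 fold change was 6.79 (adjusted p = 9.99e-04, edgeR). It stayed between 3.18 and 3.25 when any single aged heart was left out (adjusted p from 0.263 to 0.271, edgeR).

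Thrombospondin-2 is encoded by a separate gene and is known as a matrix organiser and inhibitor of blood vessel growth. Thbs2 (ENSRNOG00000010529, chromosome 1 from 56653938 to 56683731, minus strand) was at 121.8, 103.1 and 461.2 CPM in young animals 3, 13 and 15 and at 178.1, 241.6 and 140.3 CPM in aged animals 3, 4 and 7. Young animal 15 was the highest of the 6 hearts and the other young hearts the lowest, so that the groups overlapped. The log2 fold change in edgeR was -0.29 ± 0.615 (SE, adjusted p = 0.745) and changed sign to 0.77 (unadjusted p = 0.0285) without young animal 15. The ratio of the 2 thrombospondins within a heart does not depend on how libraries are scaled. Per kilobase, the Thbs1 level divided by the Thbs2 level was 0.171, 0.141 and 1.26 in young animals 3, 13 and 15 and 10.8, 8.18 and 12.9 in aged animals 3, 4 and 7. Thbs2 RNA was thus the more abundant in young animals 3 and 13, the levels were near each other in young animal 15, and Thbs1 RNA was the more abundant in the aged hearts.

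Tenascin-C and periostin are matricellular proteins known from the heart after infarction, the former around cells at the edge of the injury and the latter as a product of activated fibroblasts. Tnc (ENSRNOG00000058645, chromosome 5 from 79789671 to 79874671, minus strand) was at 12.9, 11.6 and 170.2 CPM in young animals 3, 13 and 15 and at 82.3, 223.0 and 120.6 CPM in aged animals 3, 4 and 7. Young animal 15 lay between aged animals 4 and 7, and the other young hearts lay below every aged heart. Its log2 fold change in edgeR was 1.13 ± 1.09 (SE, adjusted p = 0.47), and 3.57 (adjusted p = 0.00338) without young animal 15.

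Postn (ENSRNOG00000012660, chromosome 2 from 143656793 to 143688087, plus strand) was at 179.5, 113.6 and 673.8 CPM in young animals 3, 13 and 15. In aged animals 3, 4 and 7 it was at 342.1, 264.1 and 321.8 CPM. The highest and the lowest levels were both in young hearts, while the aged hearts lay within 1.3-fold of each other. The means were 322.3 ± 306.2 CPM in young and 309.3 ± 40.5 CPM in aged donor hearts (SD, n = 3 each). The log2 fold change of -0.059 ± 0.657 in edgeR (SE, adjusted p = 0.953) had no determined sign, and without young animal 15 it was 1.12 (adjusted p = 0.0191).

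Sparc was the only member past the limits with all hearts, and it was lower in aged donor hearts. It encodes osteonectin, a collagen-binding matricellular protein that fibroblasts and endothelial cells make at rest. Sparc (ENSRNOG00000012840, chromosome 10 from 40742400 to 40764185, minus strand) was at 3460, 3407 and 2858 CPM in young animals 3, 13 and 15. It was at 1425, 1624 and 942.4 CPM in aged animals 3, 4 and 7. The groups did not overlap, and the lowest young heart was at 1.76 times the highest aged heart. Among all genes tested, 41.6% had groups that did not overlap in either direction, and among the members 3 of 10 did (Fn1, Thbs1 and Sparc). Sparc fell by 1.28 on the log2 scale (SE 0.398, unadjusted p = 0.0164, adjusted p = 0.0976 from edgeR), from 3242 ± 333.4 to 1330 ± 350.6 CPM (SD, n = 3 each). Young animal 15 did not stand apart here, at 0.839 times the lower of the other young hearts, and the log2 fold change was -1.33 without it. The call was lost without aged animal 7 (log2 fold change -1.08, unadjusted p = 0.0795) and with libraries scaled by their totals (-0.82, unadjusted p = 0.0944) or by fibroblast identity genes (-0.49, unadjusted p = 0.462).

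**Figure D2:**
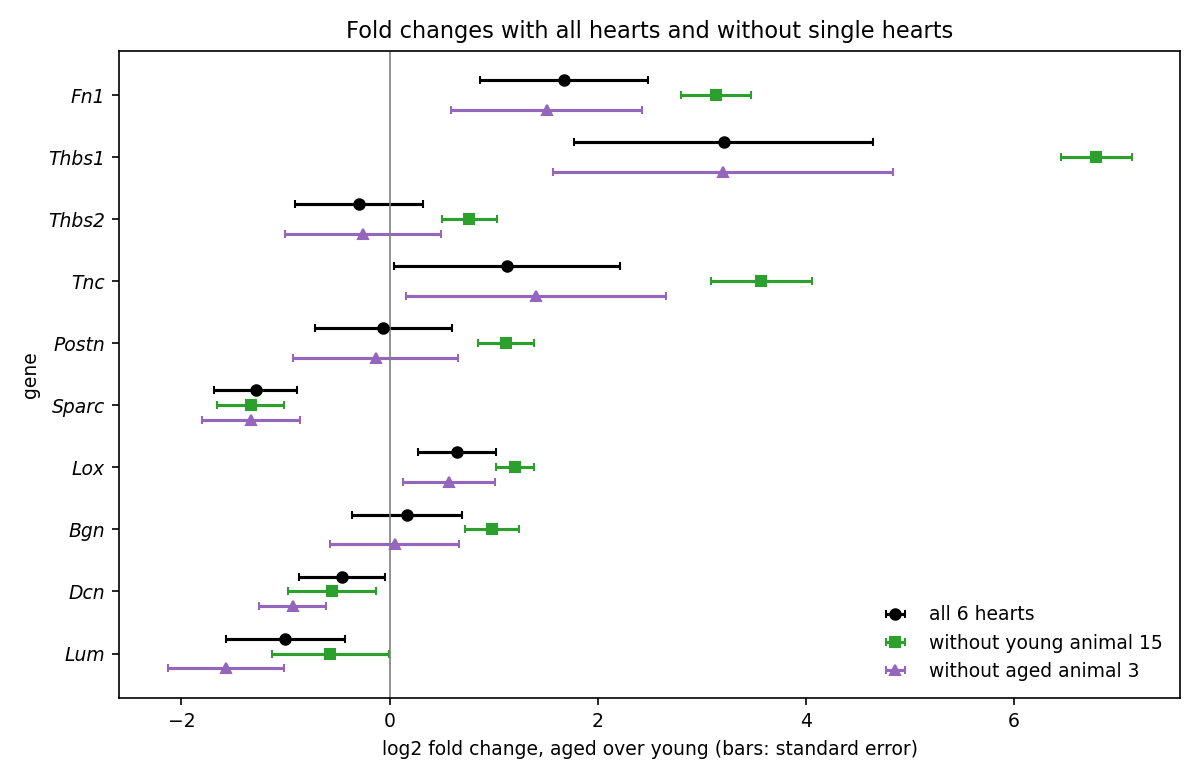
Log2 fold change of each gene, aged over young, with its standard error, from edgeR with all 6 hearts (black circles), without young animal 15 (green squares) and without aged animal 3 (purple triangles). Thbs1 moved from 3.21 to 6.79 without young animal 15 and Postn from -0.059 to 1.12, whereas Sparc stayed between -1.33 and -1.28.

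RefSeq promoters (build GRCr8, a later build than that of the counts) were matched for 5 of the 10 members, Postn, Thbs1, Tnc, Lum and Sparc. The 250 bases before the annotated gene start are printed for all 5, so that Sparc, the member past the limits, can be set beside Thbs1, Tnc, Postn and Lum, which were highest in young animal 15 among the young hearts. Capitals mark matches to TATAAA on the gene's strand and to GGAATG, the core of sites of TEAD factors, on either strand. The sequences read 5′ to 3′ on the strand of the gene.
Thbs1 (chr3:125510000-125510249, plus strand): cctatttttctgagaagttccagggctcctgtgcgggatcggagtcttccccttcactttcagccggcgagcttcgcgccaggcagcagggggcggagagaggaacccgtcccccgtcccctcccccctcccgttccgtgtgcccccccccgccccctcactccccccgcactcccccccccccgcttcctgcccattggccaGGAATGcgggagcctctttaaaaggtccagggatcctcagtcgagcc
Tnc (chr5:82476132-82476381, minus strand): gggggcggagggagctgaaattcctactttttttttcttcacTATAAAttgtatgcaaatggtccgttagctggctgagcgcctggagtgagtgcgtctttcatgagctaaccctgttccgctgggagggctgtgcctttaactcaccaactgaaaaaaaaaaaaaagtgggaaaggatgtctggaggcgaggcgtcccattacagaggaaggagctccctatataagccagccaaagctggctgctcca
Postn (chr2:140677811-140678060, plus strand): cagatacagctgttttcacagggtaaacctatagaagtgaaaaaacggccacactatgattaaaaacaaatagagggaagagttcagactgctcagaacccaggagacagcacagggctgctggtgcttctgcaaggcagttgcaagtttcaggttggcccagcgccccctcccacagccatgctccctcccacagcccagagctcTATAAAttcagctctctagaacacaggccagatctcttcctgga
Lum (chr7:34245456-34245705, plus strand): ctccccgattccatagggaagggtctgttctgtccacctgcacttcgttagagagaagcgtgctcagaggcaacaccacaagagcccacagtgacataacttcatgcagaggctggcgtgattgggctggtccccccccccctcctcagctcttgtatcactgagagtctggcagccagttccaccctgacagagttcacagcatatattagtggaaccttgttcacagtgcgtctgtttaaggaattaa
Sparc (chr10:40038817-40039066, minus strand): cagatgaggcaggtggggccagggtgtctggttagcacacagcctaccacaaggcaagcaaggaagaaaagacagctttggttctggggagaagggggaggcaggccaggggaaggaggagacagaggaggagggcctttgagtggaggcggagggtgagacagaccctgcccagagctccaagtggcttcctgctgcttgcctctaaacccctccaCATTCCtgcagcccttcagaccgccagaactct
GGAATG or its reverse complement occurred in Thbs1, from 47 to 42 bases before the start, and in Sparc, from 33 to 28 bases before it. It occurred in 12.1% of the 33469 promoters searched over the same 250 bases. TATAAA occurred in Postn, from 44 to 39 bases before the start, and in Tnc, from 208 to 203 bases before it, and in 8.06% of all promoters. Lum held neither. The GC box GGGCGG was found in Thbs1 and Tnc on either strand, and in 30.5% of all promoters. AP-1 sites (TGANTCA), CArG boxes, TGACG on either strand and GTCTAGAC had 0 matches in the 5 members, and occur in 6.34%, 1.5%, 18.2% and 0.173% of promoters. CANNTG occurred in 4 of the 5 members and in 65.5% of promoters. The G and C content was 67.6% in Thbs1, 60.0% in Sparc, 50.8% in Postn, 52.8% in Lum and 49.6% in Tnc, beside a median of 51.2% over all promoters.

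Lysyl oxidase RNA was at like levels in the aged donor hearts and in young animal 15. Lox (ENSRNOG00000014426, chromosome 18 from 47500330 to 47577819, minus strand) was at 76.6, 65.7 and 164.4 CPM in young animals 3, 13 and 15 and at 177.2, 141.6 and 161.3 CPM in aged animals 3, 4 and 7. The groups overlapped through young animal 15 alone. Its log2 fold change in edgeR was 0.65 ± 0.377 (SE, adjusted p = 0.25), and 1.21 (adjusted p = 0.00439) without that heart.

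None of the small leucine-rich proteoglycans among the members was past the limits with all hearts, and differences between their fold changes were not tested. Among the young hearts, biglycan RNA had the order of periostin, which Fn1, Thbs1, Thbs2, Tnc, Lox and Lum also had. Bgn (ENSRNOG00000055962, chromosome X from 157319046 to 157331204, minus strand) was at 336.6, 260.1 and 939.2 CPM in young animals 3, 13 and 15 and at 673.1, 588.9 and 466.2 CPM in aged animals 3, 4 and 7. All aged hearts lay between young animal 15 and the other young hearts. Its log2 fold change in edgeR was 0.17 ± 0.527 (SE, adjusted p = 0.83), 0.99 (adjusted p = 0.0246) without young animal 15, and negative without young animal 3 or without young animal 13 (-0.059 and -0.15).

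Decorin and lumican lie next to each other on chromosome 7, with 37447 bases between them and 0 genes of the table in the gap. Dcn (ENSRNOG00000004554, from 38742051 to 38782323, plus strand) was at 724.3, 635.8 and 498.3 CPM in young animals 3, 13 and 15 and at 705.0, 273.8 and 372.3 CPM in aged animals 3, 4 and 7. Aged animal 3 lay among the young hearts, and young animal 15 was the lowest of its group. For Dcn the log2 fold change in edgeR was -0.46 ± 0.412 (SE, adjusted p = 0.435), and -0.93 (unadjusted p = 0.0313, adjusted p = 0.208) without aged animal 3.

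Lum (ENSRNOG00000004610, from 38819771 to 38826862, plus strand) was at 217.4, 177.1 and 383.0 CPM in young animals 3, 13 and 15 and at 215.1, 123.8 and 49.6 CPM in aged animals 3, 4 and 7. It varied most among the aged hearts of all members, 4.34-fold from aged animal 7 to aged animal 3, and aged animal 3 again lay among the young hearts. Its log2 fold change in edgeR was -1.0 ± 0.569 (SE, adjusted p = 0.239), and -1.57 (unadjusted p = 0.0337, adjusted p = 0.21) without aged animal 3. The neighbours did not move together heart by heart. The Dcn level divided by the Lum level, per kilobase, was 3.61, 3.89 and 1.41 in young animals 3, 13 and 15 and 3.55, 2.39 and 8.13 in aged animals 3, 4 and 7.

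To compare levels between genes, CPM were divided by the gene length in kilobases. In young donor hearts Sparc had the highest mean level, 1571 ± 161.6 CPM per kilobase (SD, n = 3), followed by Dcn at 332.7 ± 61.2 and Bgn at 211.0 ± 153.3. Lum, Postn, Fn1, Thbs2, Thbs1, Lox and Tnc followed with means from 128.6 down to 9.0 CPM per kilobase, and only Sparc and Dcn, among neighbours in that order, had intervals of mean ± SD that did not overlap. In aged donor hearts Sparc was also highest, at 644.9 ± 169.9 CPM per kilobase (SD, n = 3), but Thbs1 came next at 324.1 ± 14.2 and Fn1 after it at 291.3 ± 63.2. Dcn, Bgn, Postn, Lum, Lox, Thbs2 and Tnc followed with means from 241.9 down to 19.7. Among neighbours in that order, only Sparc and Thbs1, and Bgn and Postn, had intervals of mean ± SD that did not overlap. Thbs1 moved from rank 8 of the 10 in young donor hearts to rank 2 in aged donor hearts, and Fn1 from rank 6 to rank 3.

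The make-up of the summed RNA of the 10 genes, per kilobase, differed more between hearts than the sum did. The sum was 2447, 2290 and 2879 CPM per kilobase in young animals 3, 13 and 15 and 2323, 2045 and 1586 in aged animals 3, 4 and 7. Sparc made up 68.5%, 72.1% and 48.1% of it in young animals 3, 13 and 15 and 29.7%, 38.5% and 28.8% in aged animals 3, 4 and 7. Thbs1 made up 0.145%, 0.108% and 3.44% in the young hearts, in the same order, and 14.1%, 16.4% and 19.4% in the aged hearts. Fn1 made up 1.5%, 1.36% and 7.13% in the young and 15.4%, 14.0% and 14.5% in the aged hearts. Young animal 15 therefore lay between the other young hearts and the aged hearts in the share of these 3 genes, while its shares of Postn, at 7.25%, and Bgn, at 13.4%, were the highest of all hearts.

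**Figure D3:**
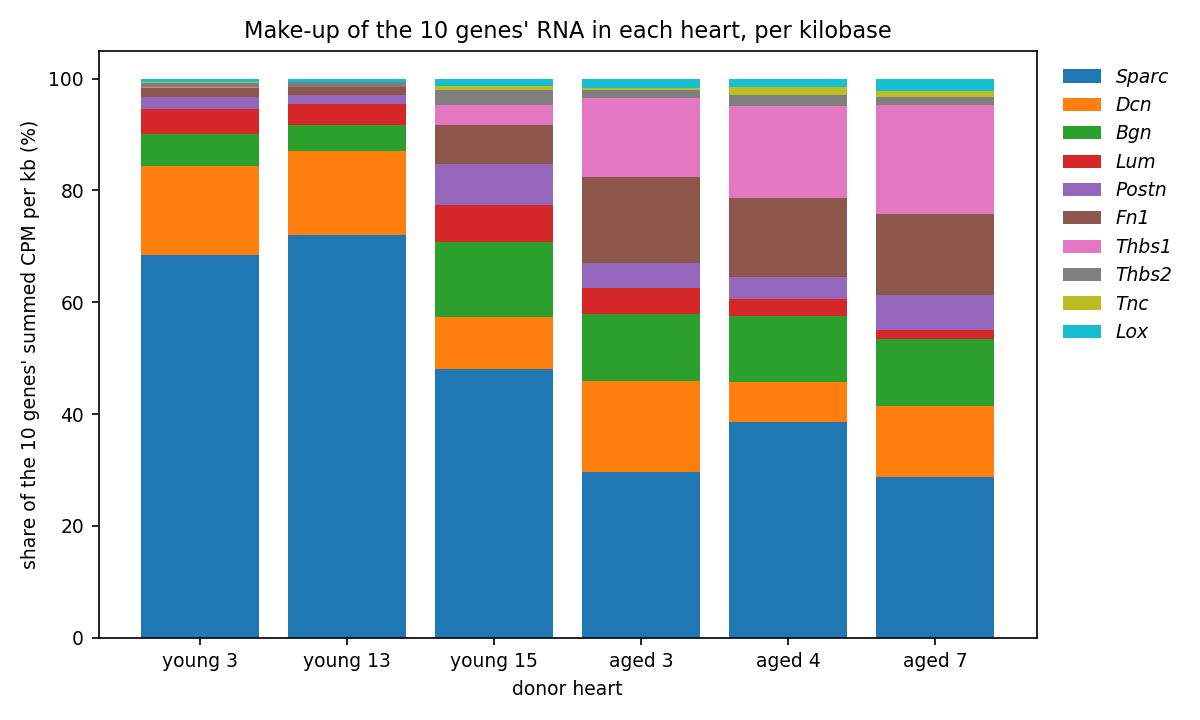
Share of each gene in the summed level of the 10 genes (CPM per kilobase of gene length, in percent) in each donor heart, as stacked bars. Sparc takes 48.1% to 72.1% in the young hearts and 28.8% to 38.5% in the aged hearts, and Thbs1 takes 14.1% to 19.4% in the aged hearts.

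All 45 ratios between pairs of members were formed within each heart, where library scaling has no part. In 21 of the 45 ratios the aged hearts lay all above or all below the young hearts, beside 42.2% of all pairs of tested genes, so the count itself was near the background. All but 5 of the 21 had Fn1 or Thbs1 as 1 of the genes, and those 5 were Tnc to Thbs2, Sparc to Lox, Sparc to Bgn, Lox to Lum and Bgn to Lum. The Fn1 level divided by the Sparc level was 0.0219, 0.0189 and 0.148 in young animals 3, 13 and 15 and 0.516, 0.364 and 0.505 in aged animals 3, 4 and 7. The Postn level divided by the Fn1 level was 1.51, 1.13 and 1.02 in the young hearts and 0.297, 0.285 and 0.432 in the aged hearts. Here young animal 15 lay with the other young hearts, although both genes were high in it. The Postn level divided by the Bgn level was within 0.328 to 0.539 in all 6 hearts and the Lox level divided by the Bgn level within 0.0884 to 0.175, with groups that overlapped.

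Other genes of the same families were read from lists. Of 24 other matricellular genes 23 were in the table and 19 were tested. Past the limits, 0 were higher and 3 were lower (Sparcl1, Fbln1 and Smoc2), with a median log2 fold change of -0.107. Of all genes tested, 13.2% were past the limits and higher and 19.0% lower. Sparcl1, which encodes hevin, a relative of osteonectin, fell from 824.5, 879.2 and 218.0 CPM in young animals 3, 13 and 15 to 122.3, 77.6 and 55.6 CPM in aged animals 3, 4 and 7 (log2 fold change -2.91, SE 0.617, unadjusted p = 0.00276, adjusted p = 0.0916 from edgeR). Fbln1, which encodes the matrix glycoprotein fibulin-1, fell by 1.36 on the log2 scale (SE 0.289, unadjusted p = 0.00286 from edgeR). All 3 aged hearts lay below all 3 young hearts, as in 20.6% of all genes tested. Sparc and its relatives Sparcl1 and Smoc2 were thus past the limits and lower, but Sparcl1 alone of the 3 was past them with library totals or with fibroblast identity scaling. Spock2, a further relative, was not past the limits (log2 fold change -0.107, unadjusted p = 0.861 from edgeR), and Smoc1, Spock1 and Spock3 were not tested. Without young animal 15 there were 11 other matricellular genes past the limits and higher (Spp1, Ccn1, Ccn2, Ccn4, Ccn5, Tgfbi, Thbs4, Comp, Tnn, Fbln2 and Emilin1) and 4 lower, and without aged animal 3 there were 0 higher and 3 lower. The shares of all genes past the limits were 26.9% higher and 24.2% lower in the former fit and 7.47% and 14.7% in the latter. Sparcl1 and Fbln1 stayed past them whichever single heart was left out. Spp1, which encodes osteopontin and was chosen here after its values were seen, was at 19.5, 21.3 and 4725 CPM in young animals 3, 13 and 15 and at 3272, 9508 and 4179 CPM in aged animals 3, 4 and 7.

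Of 12 other small leucine-rich proteoglycan genes 10 were in the table and 6 were tested. Against 19.0% of all genes tested in the lower direction, 2 of these were past the limits, both lower. They were Ogn (osteoglycin), whose log2 fold change was -1.85 (SE 0.63), and Chad (chondroadherin), with -1.74 (SE 0.432). Both are scarce in these hearts, at means of 2.90 and 3.09 CPM over all 6. Both stayed past the limits when young animal 15, aged animal 3 or young animal 3 was left out, beside 24.2%, 14.7% and 11.5% of all genes lower. Chad alone did so when young animal 13, aged animal 4 or aged animal 7 was left out, beside 11.6%, 15.3% and 13.7% of all genes lower. Kera and Omd had 0 reads in every heart, which allows no statement about them at this depth.

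Of 22 other genes of proteoglycans and the link proteins that hold them 20 were in the table and 17 were tested. Past the limits, 3 were higher (Vcan, Sdc1 and Srgn) and 6 were lower (Gpc1, Gpc3, Gpc4, Agrn, Hapln1 and Hapln3), with a median log2 fold change of -0.47. Of all genes tested, 13.2% were past the limits and higher and 19.0% lower. Vcan, the gene of the large matrix proteoglycan versican, was at 111.8, 71.7 and 459.8 CPM in young animals 3, 13 and 15 and at 1303, 639.0 and 863.6 CPM in aged animals 3, 4 and 7. Its log2 fold change was 2.12 (SE 0.762, unadjusted p = 0.0296 from edgeR). Sdc1, the gene of the cell surface proteoglycan syndecan-1, was at 5.50, 6.10 and 84.7 CPM in young and at 324.1, 211.3 and 169.1 CPM in aged donor hearts, in the same order of animals. Gpc1, which encodes the membrane-anchored proteoglycan glypican-1, fell by 2.09 on the log2 scale (SE 0.657), from 575.4, 686.5 and 295.6 CPM to 35.5, 190.5 and 139.4 CPM. Hapln1, the gene of a link protein, had a log2 fold change of -3.37 but only 1 to 81 reads in a heart, and its groups overlapped. Young animals 3 and 13 were again the lowest hearts in Vcan and Sdc1. When single hearts were left out, Vcan stayed past the limits without young animal 15 and without aged animal 4 alone, and Sdc1 without young animal 15 alone, whereas Srgn, Gpc1 and Agrn stayed past them in every such fit. There were 5 higher and 7 lower without young animal 15, beside 26.9% and 24.2% of all genes. Without aged animal 3 there were 1 higher and 5 lower, beside 7.47% and 14.7% of all genes.

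Among 15 tested genes of other crosslinking and collagen maturation enzymes, 1 was past the limits and higher and 1 lower, beside 13.2% and 19.0% of all genes tested. Tgm2, the gene of transglutaminase 2, was at 514.5, 578.9 and 688.9 CPM in young animals 3, 13 and 15 and at 877.5, 1035 and 893.5 CPM in aged animals 3, 4 and 7 (log2 fold change 0.65, unadjusted p = 0.0499 from edgeR). Loxl2, a relative of Lox, fell by 0.75 on the log2 scale (SE 0.271), and when single hearts were left out it stayed past the limits without young animal 3 and without aged animal 4 alone. With young animal 15 left out, 26.9% of all genes were past the limits and higher and 24.2% lower. In that fit 8 of the enzymes were higher, among them the procollagen hydroxylase genes P4ha1, P4ha3, Plod2 and Plod3, and 0 lower. Without any other single heart, there were 0 higher.

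The receptor list held integrin subunits, CD44, syndecan-4, scavenger and Toll-like receptors known to bind these proteins. Of its 19 tested genes 4 were past the limits and higher (Itgb3, Stab1, Lrp1 and Tlr4) and 2 lower (Itga8 and Itga9), with a median log2 fold change of 0.839. Of all genes tested, 13.2% were past the limits and higher and 19.0% lower. Itgb3, the beta subunit of the vitronectin receptor and of the platelet fibrinogen receptor, was at 6.90, 4.26 and 8.30 CPM in young animals 3, 13 and 15 and at 38.3, 14.8 and 15.8 CPM in aged animals 3, 4 and 7. Lrp1, an endocytic receptor that clears thrombospondin-1, was at 312.1, 304.8 and 950.6 CPM in young and at 1973, 1258 and 1264 CPM in aged donor hearts. Itga9, the alpha subunit of a tenascin-C receptor, fell by 1.41 on the log2 scale (SE 0.379, unadjusted p = 0.00881 from edgeR), and Itga8, which pairs with the beta-1 subunit, fell by 1.80 (SE 0.733). Without young animal 15 there were 12 past the limits and higher and 1 lower, beside 26.9% and 24.2% of all genes. Without young animal 3 or without young animal 13 there was 1 higher, beside 5.83% and 6.13% of all genes. Without aged animal 3 there were 2 higher and 2 lower, beside 7.47% and 14.7% of all genes. Itgb3 and Itga9 stayed past the limits whichever single heart was left out, Lrp1 without young animal 15 alone, and Itga8 without young animal 3, young animal 13 or aged animal 3.

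**Figure D4:**
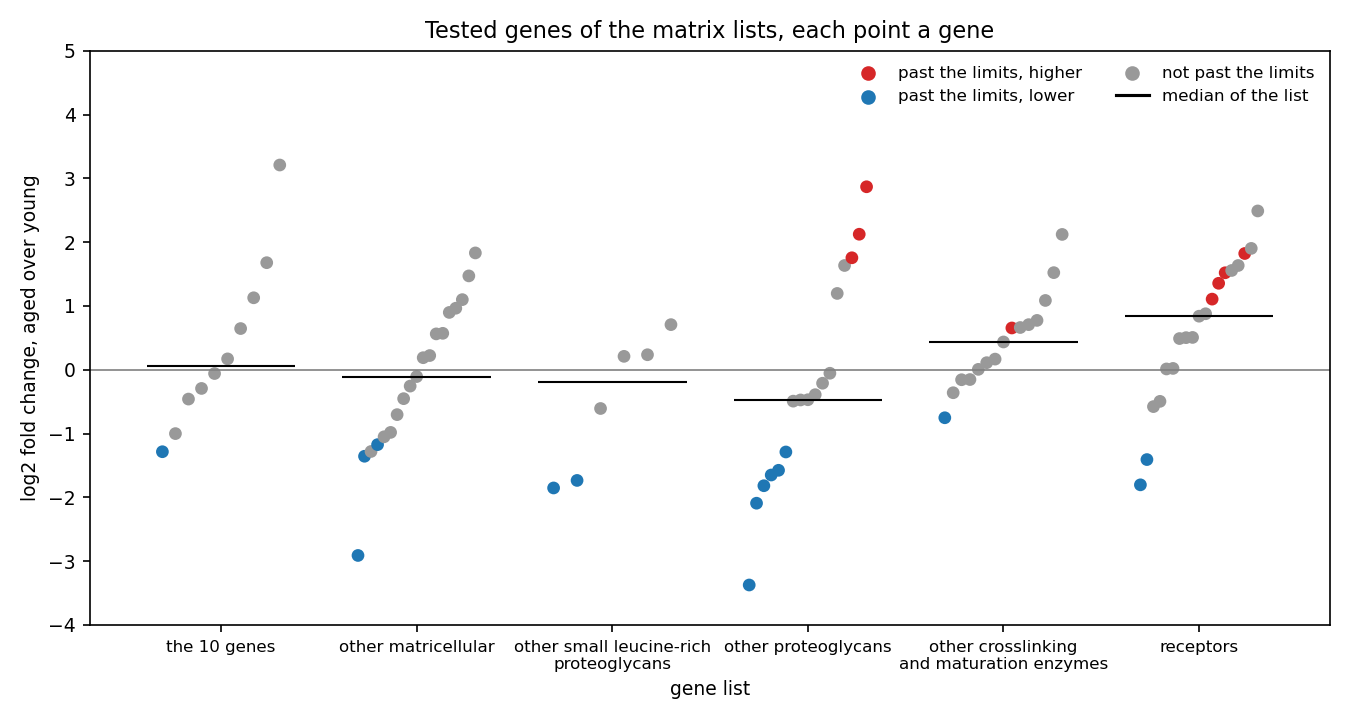
Log2 fold change, aged over young, of each tested gene of the 10 genes and of the 5 related lists, with the list's median as a line and genes past the limits coloured (red higher, blue lower). The medians run from -0.47 in other proteoglycans to 0.839 in receptors, beside 0.017 over all genes tested.

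Marker lists were summed for the cell types that the tissue could hold. Of all genes tested, 13.2% were past the limits and higher and 19.0% lower with all hearts. These shares were 26.9% and 24.2% without young animal 15, and 7.47% and 14.7% without aged animal 3. Fibroblast identity genes, 7 of 8 tested, had 0 past the limits and higher and 3 lower (Dpt, Scara5 and Clec3b), and their summed level was 572 to 795 CPM in young and 430 to 698 CPM in aged donor hearts. There were 1 higher (Pdgfra) and 4 lower without young animal 15, and without aged animal 3 the same 3 lower. With all hearts Pdgfra, Ddr2 and Tcf21 were not past the limits, and Cd248 was at 0 reads in every heart. The sum joins means that moved in opposite directions, 303.3 CPM in young and 100.1 CPM in aged donor hearts for Dpt and 175.7 and 308.3 CPM for Pdgfra. The groups of Pdgfra overlapped (adjusted p = 0.196, edgeR). Fibroblast collagens, 5 of 6 in the table, had 4 past the limits and lower (Col1a1, Col3a1, Col5a1 and Col6a1), with summed levels of 6490 to 8060 CPM in young and 1940 to 3900 CPM in aged donor hearts, but 0 with libraries scaled by their totals or by fibroblast identity genes. Leaving out single hearts left 1 collagen (Col3a1) past the limits without young animal 15 and without aged animal 3, 0 without young animal 3 and without aged animal 7, 2 without young animal 13 and 3 without aged animal 4. Myofibroblast and smooth muscle markers had 2 of 6 and mural markers 2 of 5 past the limits, all lower. Endothelial markers had 1 of 6 past the limits and lower, and their summed level was 1100 to 1580 CPM in young and 852 to 1320 CPM in aged donor hearts.

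The summed levels of macrophage and of neutrophil markers were lowest in young animals 3 and 13, higher in young animal 15 and highest in the aged hearts. The same held for the sums of T cell markers, of platelet markers and of the receptor list, and for the levels of Thbs1 and Fn1. Single markers did not all keep this order, since Adgre1 and Lcn2 were lowest in young animal 15, and Cd68, Csf1r, Mrc1, C1qa and C1qb were higher there than in aged animal 7. Of 10 macrophage markers 5 were past the limits and higher, and they summed to 400 and 369 CPM in young animals 3 and 13, 2350 CPM in young animal 15 and 3680 to 7090 CPM in aged donor hearts. Of 9 tested neutrophil markers 7 were past the limits and higher, and they summed to 17.0, 17.1 and 145 CPM in young animals 3, 13 and 15 and to 356 to 1360 CPM in aged donor hearts. All 10 macrophage and all 9 tested neutrophil markers were past the limits and higher without young animal 15, and without aged animal 3 there were 2 and 3. Of all genes, 13.2% were past the limits and higher with all hearts, 26.9% without young animal 15 and 7.47% without aged animal 3. Of the 8 platelet markers 4 were tested, and 1 of these, Pf4, which macrophages can also express, was past the limits and higher. The others tested were Itga2b, at 1.63 to 7.03 CPM and highest in aged animal 3, Gp1ba, at 0.0379 to 1.57 CPM, and Treml1, at 0.33 to 1.02 CPM, and of the markers not tested Ppbp, Gp9 and Tubb1 stayed under 1 CPM in every heart and Gp1bb was at 0. The platelet markers summed to 10.7 to 24.9 CPM in young and 48.9 to 120 CPM in aged donor hearts, most of it Pf4 in the aged hearts. T cell markers had 2 of 6 past the limits and higher (summed 29.3 to 80.6 CPM in young and 96.2 to 145 CPM in aged donor hearts). Atrial markers summed to 44.8 to 394 CPM in young and 5.65 to 1520 CPM in aged donor hearts and mesothelial markers to 13.2 to 52.8 and 12.0 to 26.2 CPM, with 0 past the limits in either list. Most of the atrial sum was Nppa in young animal 15, aged animal 4 and aged animal 7 (390.3, 1367 and 367.6 CPM). The other atrial markers Myl7, Myl4 and Sln were highest in aged animal 4 (69.15, 47.65 and 33.17 CPM). Myl7 was at 49.73 CPM in young animal 3 and at most 5.595 CPM in the remaining hearts. Red blood cell markers summed to 729 to 5780 CPM in young and 246 to 3100 CPM in aged donor hearts, with 1 of 5 lower. The part of any of these cell types in the levels of the 10 genes was not tested.

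**Figure D5:**
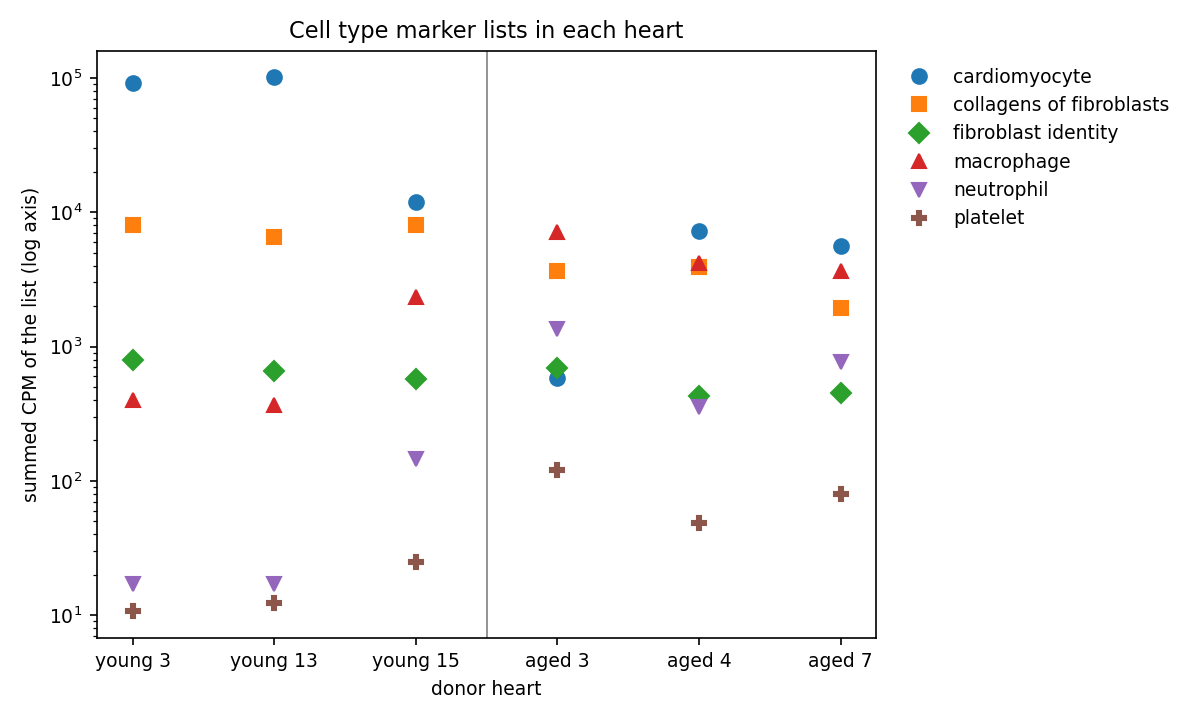
Summed level in CPM (log axis) of 6 marker lists in each donor heart. Cardiomyocyte markers are at 91200 and 101000 CPM in young animals 3 and 13 and at most 11900 CPM elsewhere. Macrophage, neutrophil and platelet markers are lowest in young animals 3 and 13. The sum of the fibroblast identity genes lies between 430 and 795 CPM. Within that list the mean of Dpt was lower in aged hearts and that of Pdgfra, which was not past the limits, higher.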

How the data were processed

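Poly(A) RNA of 6 donor hearts had been sequenced by the authors on an Illumina platform. The authors deposited raw read counts per gene, without normalization, and FPKM values per gene and heart. The FPKM were the counts over gene length and library total in all but 1 of 133500 values (relative tolerance 0.001) and were used for nothing else. The submitters' processing notes name HISAT2 2.0.5, StringTie 1.3.3b, featureCounts 1.5.0-p3, DESeq2 1.16.1 and GATK 3.7, with build Rnor_6.0. The strand setting is not given in the sources used here. Within the coordinates of Fn1 and Lox lies 1 other gene each, on the opposite strand, with at most 6 reads.

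The tests on counts were run with edgeR 4.0.16 under R 4.3.3 (filterByExpr, TMM, glmQLFit and glmQLFTest, Benjamini-Hochberg adjustment), with DESeq2 1.42.0 and limma 3.58.1 as alternatives, and in Python 3.11.15 with scipy 1.17.1 (two-sided exact permutation tests of log2 CPM, prior count 2). Standard errors in edgeR were derived from the F statistic, dividing the fold change (log2) by its square root. The edgeR step was tested on simulated data. All members were named. Of the related lists, genes named by rule were the 2 highest and 2 lowest log2 fold changes past the limits with a mean of at least 1 CPM. Members, lists, motifs and the choice of ratios were made with earlier results of these data known. Alternatives were other scalings, tools, filters and thresholds, and leaving out each heart. Hearts are separate animals, and the SD and SE given include variation between them. Genes of a list without a row in the table used were not analysed here.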

Additional observations from a re-analysis of the deposited data

How the results depend on the processing

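Direction and side of the limits were compared with the edgeR fit of all 6 hearts. DESeq2 size factors left 0 crosslinking and collagen maturation enzymes past the limits and higher, beside 12.9% of all genes. With library totals, which moved the median log2 fold change of all genes to 0.455, 3147 genes were higher and 1441 lower. Then 0 members, 1 other small leucine-rich proteoglycan, 3 other proteoglycans, 0 enzymes and 1 receptor were lower, and 2 enzymes were higher. Postn (0.20) and Dcn (0.045) changed sign and Sparc, at -0.82, was no longer past the limits. Fibroblast identity scaling moved the median to 0.805, with 3032 genes higher and 550 lower. It left 1 member, 2 enzymes and 8 receptors higher, and 0 members, 1 other matricellular gene, 0 other small leucine-rich proteoglycans, 1 other proteoglycan, 0 enzymes and 0 receptors lower. Postn (0.40), Thbs2 (0.158) and Dcn (0.33) changed sign, Thbs1 (3.47) was past the limits and Sparc (-0.49) was not. Relative to the median of all genes, Postn stood at -0.255 and -0.406 and Dcn at -0.41 and -0.472 under these 2 scalings, Thbs2 at -0.486 and -0.647, and Sparc at -1.27 and -1.3, so that these signs did not change. On the same measure Bgn was at 0.154 in the edgeR fit of all 6 hearts and at 0.0173 and -0.143 under these scalings. Its sign thus changed with fibroblast identity scaling.

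DESeq2's Wald test placed 2 members (Fn1, 1.67, and Thbs1, 3.21), 3 enzymes and 8 receptors past the limits and higher, beside 15.6% of all genes. Limma-voom placed 2 members (Fn1, 2.29, and Thbs1, 4.93), 3 enzymes and 8 receptors higher, beside 16.1% of all genes. It placed 3 other proteoglycans and 1 receptor lower, beside 17.1% of all genes, and turned the sign of Postn (0.42) and Thbs2 (0.074). With no filter 5 other matricellular genes were lower and 0 enzymes higher, beside 16.2% of all genes lower and 11.5% higher. In the edgeR fit with TMM scaling and all hearts, all counts were 0 at an adjusted p under 0.05. DESeq2's Wald test gave 2 members (Sparc and Thbs1) such an adjusted p, among 3592 genes. A minimum mean of 1 CPM changed no call of a member. The causes were not tested.

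Leaving out each heart in turn, genes past the limits numbered 2432 at the lowest, with young animal 3 left out, and 7214 at the highest, with young animal 15 left out, from 817 to 3802 higher and from 1615 to 3412 lower. Members ranged from 0 to 7 higher and from 0 (without aged animal 7) to 3 (without aged animal 3) lower. Other matricellular genes ranged from 0 to 11 higher and 2 to 4 lower, other small leucine-rich proteoglycans from 0 to 0 and 1 to 2, other proteoglycans from 1 to 5 and 3 to 7, enzymes from 0 to 8 and 0 to 1, and receptors from 1 to 12 and 1 to 2. The log2 fold change ranged from -0.46 to 1.12 in Postn, 1.27 to 3.14 in Fn1, 0.63 to 3.57 in Tnc, 2.66 to 6.79 in Thbs1, -0.64 to 0.77 in Thbs2, -1.45 to -1.08 in Sparc, 0.41 to 1.21 in Lox, -0.15 to 0.99 in Bgn, -0.93 to -0.19 in Dcn and -1.57 to -0.57 in Lum. Postn changed sign without young animal 15 (1.12) and without aged animal 4 (0.046), Thbs2 without young animal 15 (0.77), and Bgn without young animal 3 (-0.059) and without young animal 13 (-0.15). No paired analysis was possible because the groups share only 1 replicate number (3). Depth allowed every member to be tested, with at least 142 reads in each heart.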
